A study of Homo sapiens with 6 samples.

Results

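Integrins are paired receptors of an alpha and a beta subunit that hold cells to the extracellular matrix. The genes described here were 38 of the 35639 genes in the deposited table, found by gene symbol. They comprise 25 integrin subunits (17 alpha and 8 beta) and 13 adaptor and actin-linking proteins of focal adhesions, the plaques in which integrins meet the actin cytoskeleton. The RNA-seq was made in hFOB 1.19, an immortalised human fetal osteoblastic line that proliferates at 34 °C. Cells were transduced with the lentiviral vector pHIV-dTomato, either empty (EV) or carrying HA-tagged histone H3.3 made from Drosophila His3.3A cDNA, as wild type (WT) or with the G34W substitution (G34W). Cells of the 3 groups were sorted for dTomato, kept at 34 °C and collected 15 days after transduction, in 2 libraries per group.

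The groups follow the library titles. In the labels' genotype entry WT and G34W are swapped relative to these titles, so each direction below rests on the titles. The transgene is not among the listed human genes and could not be used to check them. Per the study's methods cells were collected in duplicate, and replicates are in general separate wells of an experiment. Whether the libraries of a group came from separate transductions is not given in the sources used here, so p-values measure only the spread between these libraries.

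The alpha subunit largely sets which ligand an integrin binds. Collagen is bound by alpha1, alpha2, alpha10 and alpha11, and laminin by alpha3, alpha6 and alpha7. Fibronectin, vitronectin and other proteins with the tripeptide RGD are bound by alpha5, alpha8, alphaV and alphaIIb. Inside the cell, talin and kindlin bind the beta tail, and vinculin, filamin and alpha-actinin link it to actin. In osteoblasts these receptors hold the cell to the collagen and fibronectin of bone matrix.

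Values are normalised estimated counts, and their sums were between 38821143 and 48024590 in 5 libraries. The depth of each library is unknown. EV replicate 1 was listed at 0 for 28688 genes, 18 of the 38 genes among them, and its values summed to 157595150. It was left out, so EV is 1 library with no replicate.

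G34W replicate 1 stood apart from the other libraries. On log2 values its Pearson correlation across genes with each other library was between 0.906 and 0.916, whereas the other 4 reached at least 0.969 with their nearest library. All 12 of 12 pluripotent stem cell markers were highest in it. Their summed level was 66363 there, against 1142 in EV replicate 2, 955 in G34W replicate 2, 982 in WT replicate 1 and 1058 in WT replicate 2. POU5F1 was the most abundant of them, and UTF1 was listed at 0 in EV replicate 2, G34W replicate 2 and WT replicate 2. Of 5 epithelial markers, 4 were highest in G34W replicate 1, among them EPCAM with 2175 there and between 9.97 and 46.6 elsewhere. KRT18 led that list, whose sum was 28214 in G34W replicate 1 and between 21298 and 29980 in the other libraries. In bulk RNA, fewer cells of a type and less RNA per cell cannot be told apart. The part of these markers in the results below was not tested, and values are given for each G34W library.

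Genes of the osteoblast lineage list were detected in each of the 5 libraries, with COL1A1 between 24757 and 43115. The summed level of the 10 markers was between 301293 and 448397, mostly VIM, COL1A2, SPARC and COL1A1. VIM was the most abundant of them. The sum therefore says little about the lower markers of the list. SP7 was at most 6.03 and BGLAP at most 44.9, so both were low. RUNX2 was between 236 and 573. ALPL was 1216 in G34W replicate 1 and between 107 and 428 in the other libraries. Summed myeloid and osteoclast markers were between 1266 and 1579, mostly CD68, with TYROBP listed at 0 in each library. Endothelial markers summed to between 876 and 2324, mostly TEK, with the highest sum in G34W replicate 1. KDR was 656 in that library and between 26.6 and 78.3 in the others. Skeletal muscle markers, led by DES, summed to between 1002 and 5147.

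ITGB1, the beta subunit shared by most matrix receptors, was the most abundant subunit per length. Levels of different genes are compared here as normalised estimated counts per kb of the canonical transcript, averaged over the 5 libraries. ITGB1 (ENSG00000150093; chromosome 10 of GRCh38.p14, 32900318 to 32958230) reached 18460 per kb. FLNA, an actin crosslinker, followed with 16300 per kb, then ACTN1 with 7639, ITGA5 with 7606 and ITGA3 with 6623. With the merged exons of each gene as its length, FLNA came first with 12768 per kb and ITGB1 followed with 4735. ITGB1 made up between 83.7% and 88.7% of the beta subunit level per kb in the 5 libraries, and ITGB5, a partner of alphaV, between 10.6% and 15.2%. These shares depend on the length used, and with merged exons they were 65.9% to 74.7% for ITGB1 and 23.8% to 31.7% for ITGB5. The other 6 beta subunits were led by ITGB3, at most 0.557% in any library, or 1.48% with merged exons.

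Values for ITGB1 were 63395 normalised estimated counts in EV replicate 2, 79576 and 66115 in the WT libraries and 66170 and 69487 in the G34W libraries. The G34W values lay within the WT pair, and EV replicate 2 was below the other 4. The log2 fold change of G34W against WT was -0.10 (standard error 0.29).

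ITGA5 and ITGA3 together held most of the alpha subunit level. ITGA5, the fibronectin receptor subunit (ENSG00000161638; chromosome 12, 54395261 to 54419266), took between 37.4% and 46.1% of it. ITGA3, a laminin receptor subunit (ENSG00000005884; chromosome 17, 50056110 to 50090481), took between 32.5% and 39.7%. By ligand class, RGD-binding subunits held 49.8% in EV replicate 2, 45.8% and 50.8% in WT, and 43.9% and 45.4% in G34W. Laminin-binding subunits held 42.7%, 45.9% and 39.6%, and 47.1% and 44.8% in the same order. Collagen-binding subunits were at 4.77% to 6.36%, alpha4 and alpha9 at 1.94% to 2.75%, and leukocyte subunits at 0.618% to 1.18%. With merged exons collagen-binding subunits were at 7.19% to 9.33%, RGD-binding at 42.8% to 49.6% and laminin-binding at 37.5% to 45.4%. The 2 G34W libraries had the lowest RGD-binding shares, but WT replicate 1 was close to them and the WT libraries lay further from each other than WT replicate 1 from either G34W library.

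**Figure D1:**
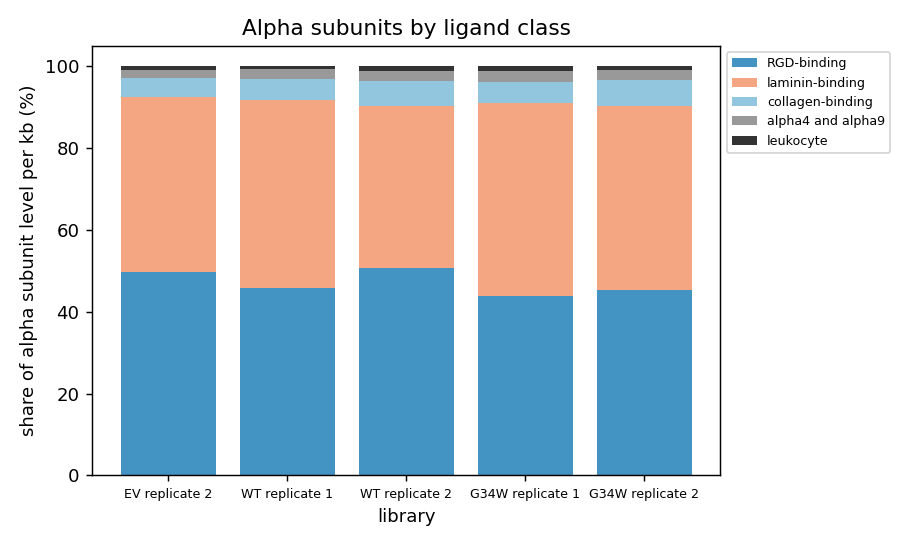
Share of the summed alpha subunit level per kb taken by each ligand class (y axis, percent) in each of the 5 libraries (x axis). RGD-binding and laminin-binding subunits fill most of each bar, with RGD-binding subunits between 43.9% and 50.8%.

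Among the RGD-binding alpha subunits, ITGA5 was 35367 in EV replicate 2, 30753 and 38441 in WT and 24083 and 32974 in G34W. G34W replicate 1 was the lowest of the 5 and G34W replicate 2 lay between the WT libraries. ITGAV, which pairs with several beta subunits, was the steadiest member, between 6426 and 7401 with a coefficient of variation of 6.12%. ITGA8, a receptor subunit for nephronectin, was near the lowest values analysed. It was 8.99 in EV replicate 2, 4.70 and 3.70 in WT and 28.3 and 7.70 in G34W. It was the 1 member of 38 whose G34W libraries both lay above both WT libraries, as did 11.6% of all genes tested. With libraries rescaled there were 3 (ITGA4, ITGA8 and ITGA11), against 14.2%. It passed the filter on low values only through G34W replicate 1, and without that library it was not tested. ITGA2B, the platelet alphaIIb subunit, was 31.8 in EV replicate 2, 106 and 25.5 in WT and 165 and 54.0 in G34W, and the pairs overlapped.

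Of the beta partners of alphaV, ITGB3 was 625 in EV replicate 2, 415 and 699 in WT and 388 and 459 in G34W. ITGB5 ranged from 11348 to 14222. ITGB6, mainly an epithelial subunit, was 56.4 in G34W replicate 1 and between 9.27 and 25.7 elsewhere. ITGB8 was 170 and 572 in the G34W libraries and 188 and 440 in the WT libraries, so both pairs were spread more widely than they differed.

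Laminin-binding subunits included the 1 member of 38 whose G34W libraries both lay below both WT libraries, against 14.7% of all genes tested. This was ITGA6 (ENSG00000091409; chromosome 2, 172427336 to 172506459), with 3556 in EV replicate 2, 4838 and 5578 in WT and 4828 and 4267 in G34W. The nearest WT and G34W values differed by less than the libraries within either pair, EV replicate 2 was lower than all 4, and the pairs overlapped once libraries were rescaled. The members below were then ITGA5 and ACTN4, against 14.1% of all genes. ITGA3 was flat, between 29432 and 36236. ITGA7, best known from muscle, was 3145 in EV replicate 2, 3203 and 1762 in WT and 1185 and 2311 in G34W. Here G34W replicate 1 was lowest, as it was for the sum of the skeletal muscle list, which DES led. DES and MYOD1 were lowest there, but MYH3 and MYOG were lowest in WT replicate 2. ACTA1 was highest in G34W replicate 1. ITGB4, the partner of alpha6 in hemidesmosomes, was between 87.2 and 144.

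The collagen-binding subunits differed among themselves. ITGA2 was 1703 in EV replicate 2, 1740 and 4788 in WT and 1634 and 1988 in G34W, so WT replicate 2 alone was high. ITGA1 was 2699 in EV replicate 2, 4547 and 3225 in WT and 3212 and 5916 in G34W, with G34W replicate 2 highest. ITGA11, a collagen receptor of mesenchymal cells, was 3395 in EV replicate 2, 2214 and 2369 in WT and 2311 and 3330 in G34W. EV replicate 2 and G34W replicate 2 were thus close to each other and above the remaining 3 libraries. ITGA10, a subunit of cartilage, was between 307 and 531.

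ITGA4, which binds VCAM1 and fibronectin, was between 2451 and 3354. ITGA9 varied most of all 38, with a coefficient of variation of 112%. It was 7.92 in EV replicate 2, 46.4 and 51.7 in WT and 176 and 18.5 in G34W, with the WT pair between the G34W libraries. Leukocyte subunits, which serve adhesion of blood cells, were low. ITGAL, ITGAM, ITGAX and ITGB7 were each at most 118 in every library. ITGB2 was 261 in EV replicate 2, 95.5 and 109 in WT and 55.9 and 128 in G34W. ITGAE was between 353 and 765.

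**Figure D2:**
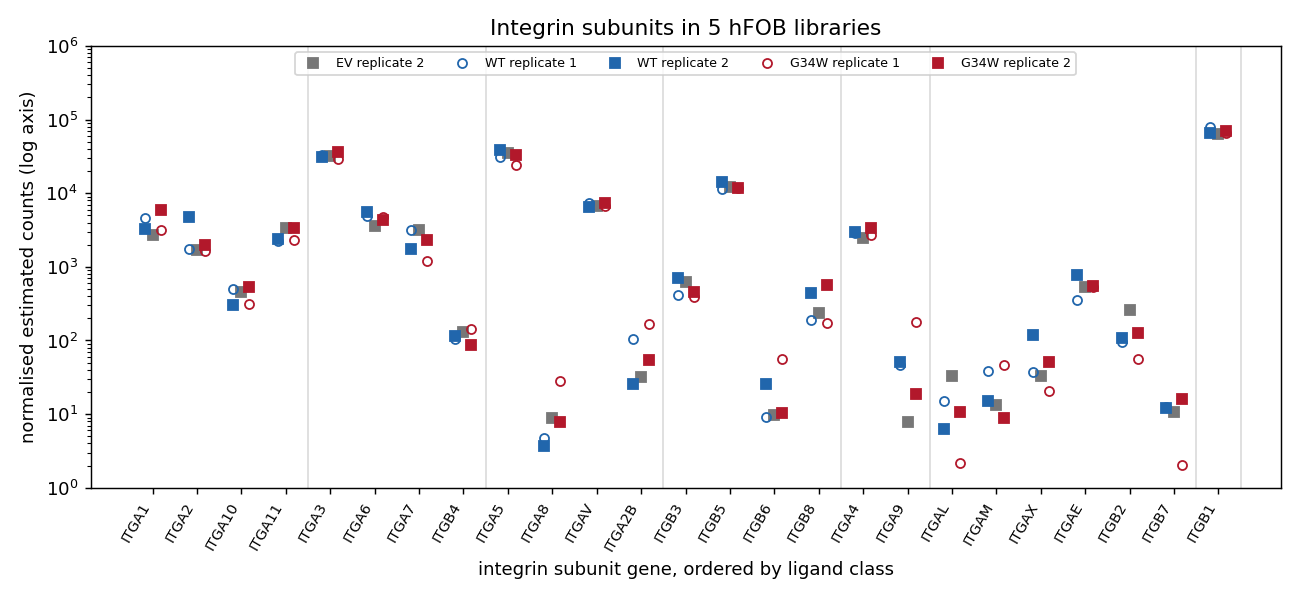
Normalised estimated counts (y axis, log scale) of the 25 integrin subunits (x axis, ordered by ligand class, grey lines between classes) in the 5 libraries. Each point is 1 library, open for replicate 1 and filled for replicate 2; ITGB1 is highest and the low subunits, such as ITGA8 and ITGA9, are the most spread.

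Many adaptor and actin-linking genes shared their highest and lowest library. Of these 13, 12 were highest in WT replicate 2 and 9 were lowest in G34W replicate 1. Over all genes tested the shares were 30.8% and 40.1%, and over the 7344 genes with a mean of at least 1000 they were 42.8% and 53.9%. These libraries were singled out after their values were seen. The exception to the first count was TLN2, a second talin, which was highest in G34W replicate 2.

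FLNA (ENSG00000196924; chromosome X, 154348531 to 154374634) was 152262 in EV replicate 2, 113719 and 193184 in WT and 100666 and 133465 in G34W. TLN1, the talin that activates integrins, was 23400 in EV replicate 2, 16464 and 29207 in WT and 13547 and 22336 in G34W. In both genes G34W replicate 2 lay between the WT libraries and G34W replicate 1 below them. VCL, vinculin (ENSG00000035403; chromosome 10, 73998116 to 74121363), was 18858 in EV replicate 2, 15925 and 22784 in WT and 15255 and 18948 in G34W. ACTN4, an alpha-actinin, was 16492 in EV replicate 2, 14494 and 20697 in WT and 10900 and 15491 in G34W. ACTN1 followed the same order of libraries as FLNA and TLN1, from 20347 to 39740.

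Of the scaffold and signalling members, FERMT2, ILK and PTK2 had the lowest coefficients of variation of the 13, at 7.30%, 9.45% and 12.7%. ILK, a pseudokinase that joins parvin at the beta tail, was between 9955 and 12446, and FERMT2, kindlin-2, between 5897 and 7037. PTK2, focal adhesion kinase, was between 3877 and 5366. Its relatives in the plaque were between 3213 and 5866 for PXN, paxillin, between 6698 and 11575 for BCAR1, a docking protein, and between 2823 and 4791 for PARVA. ZYX, which marks adhesions under tension, had the highest coefficient of variation of the 13, 31.1%, and ranged from 1872 to 4052.

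**Figure D3:**
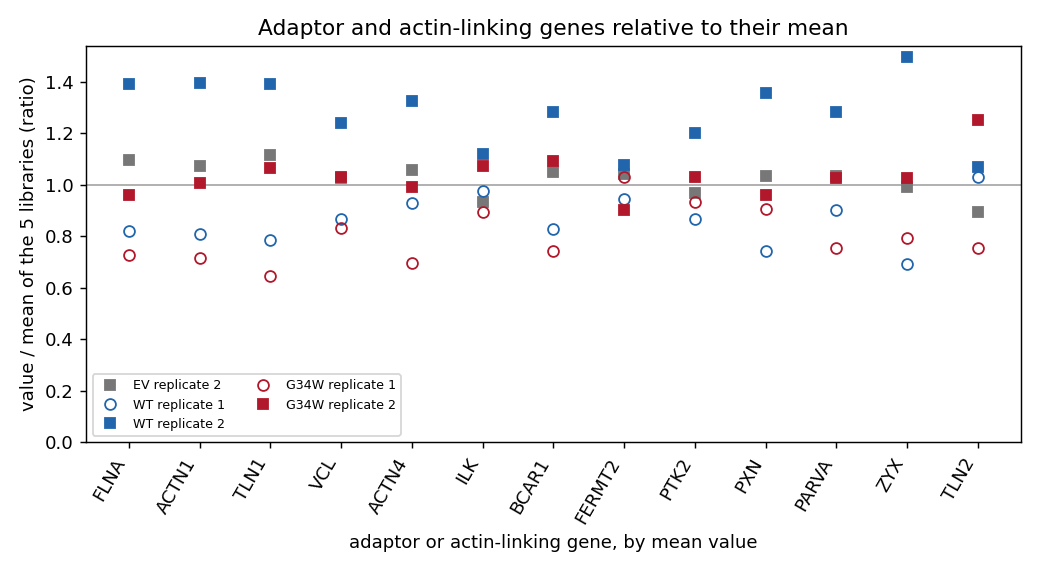
Value of each of the 13 adaptor and actin-linking genes (x axis) divided by its mean over the 5 libraries (y axis, ratio). WT replicate 2 (filled blue) is highest for 12 genes and G34W replicate 1 (open red) is lowest for 9.

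Since several actin-linking genes shared an order of libraries, the stretch before their start was searched for binding motifs of factors known for cytoskeletal genes. RefSeq promoters of GRCh38.p14 were found for 28 of the 38 genes (42 entries, with alternative starts). The 250 bases before each start were read on both strands for the CArG box, bound by serum response factor, for the AP-1 motif TGANTCA and for the TEAD motif GGAATG. The CArG box was in 3 of 42 entries and in 1.16% of 35116 promoters. AP-1 was in 2 of 42 and in 6.57%, and TEAD in 6 of 42 and in 11.9%. ITGB1 (chr10:32958231-32958480, minus strand, TEAD), FLNA (chrX:154374635-154374884, minus strand, CArG box), VCL (chr10:73997866-73998115, plus strand, TEAD) and ITGA5 (chr12:54419267-54419516, minus strand, TEAD) are shown because they are the most abundant members per kb of canonical transcript with a match just before the gene's outermost start; capitals mark the match, 1 in each.
ITGB1: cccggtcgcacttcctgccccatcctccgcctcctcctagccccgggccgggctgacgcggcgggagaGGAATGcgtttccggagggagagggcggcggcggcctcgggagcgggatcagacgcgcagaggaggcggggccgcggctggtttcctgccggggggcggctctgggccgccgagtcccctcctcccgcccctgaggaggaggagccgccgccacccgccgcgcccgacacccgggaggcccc
FLNA: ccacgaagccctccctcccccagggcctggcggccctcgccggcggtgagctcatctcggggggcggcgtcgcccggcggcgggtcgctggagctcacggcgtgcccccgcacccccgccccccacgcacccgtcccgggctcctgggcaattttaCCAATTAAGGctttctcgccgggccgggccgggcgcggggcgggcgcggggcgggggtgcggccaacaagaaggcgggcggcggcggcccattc
VCL: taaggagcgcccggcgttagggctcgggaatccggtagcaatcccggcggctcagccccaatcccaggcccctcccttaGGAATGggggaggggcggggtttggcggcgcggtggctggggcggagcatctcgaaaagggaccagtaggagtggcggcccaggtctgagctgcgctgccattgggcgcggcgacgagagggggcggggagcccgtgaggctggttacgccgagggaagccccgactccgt
ITGA5: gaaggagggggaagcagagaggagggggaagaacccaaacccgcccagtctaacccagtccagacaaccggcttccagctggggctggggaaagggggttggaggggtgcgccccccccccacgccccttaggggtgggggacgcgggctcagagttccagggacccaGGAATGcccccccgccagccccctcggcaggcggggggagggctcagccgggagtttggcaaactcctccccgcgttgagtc
A match describes the letters only, and binding was not measured in these data.

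The comparison of G34W with WT asks what the mutant histone adds to the wild-type one. No member passed the test: limma on log2(value + 1) called 0 of 38 members and 0 of 16259 genes at an adjusted p under 0.05, a background of 0%. At an unadjusted p under 0.05 there were 0 members and 439 genes, 265 higher and 174 lower in G34W. These counts depended on single libraries. Without a WT or G34W library, that group holds 1 library and takes its spread from the other groups. Counts at an unadjusted p are therefore not given for those fits. The median log2 fold change of the members was -0.11, with 65.8% below 0, against -0.055 and 56.9% over all genes tested. With libraries rescaled the medians were -0.039 and 0.015. Without G34W replicate 1 the median of the members was -0.0076, without G34W replicate 2 it was -0.25, without WT replicate 1 it was -0.28, and without WT replicate 2 it was 0.025. G34W replicate 1 was below both WT libraries for 22 of 38 members, against 47.6% of all genes, and above both for 6, against 25.9%. G34W replicate 2 was below both for 5 members, against 23.2%, and above both for 11, against 31.8%.

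The member with the lowest p was ITGA2, with a log2 fold change of -0.68 (standard error 0.43, 95% interval -1.64 to 0.28). It was 0.051 without WT replicate 2. ACTN4 followed at -0.41 (standard error 0.29, interval -1.08 to 0.25) and was -0.16 without G34W replicate 1. ITGA7 was at -0.52, and -0.040 without G34W replicate 1. Of the abundant subunits, the interval was from -0.57 to 0.63 for ITGA3 and from -0.50 to 0.57 for ITGAV. It was from -0.74 to 0.55 for ITGB1 and from -0.93 to 0.36 for ITGA5. For the 13 adaptor and actin-linking genes the median log2 ratio to the WT mean was -0.48 in G34W replicate 1 and -0.0076 in G34W replicate 2. Over all genes tested it was -0.17 and 0.042, and over those with a mean of at least 1000 it was -0.24 and 0.031. Leaving out 1 library turned the direction of 30 of the 38 members. With 2 libraries in either group, the smallest two-sided p of an exact permutation test is 0.333.

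**Figure D4:**
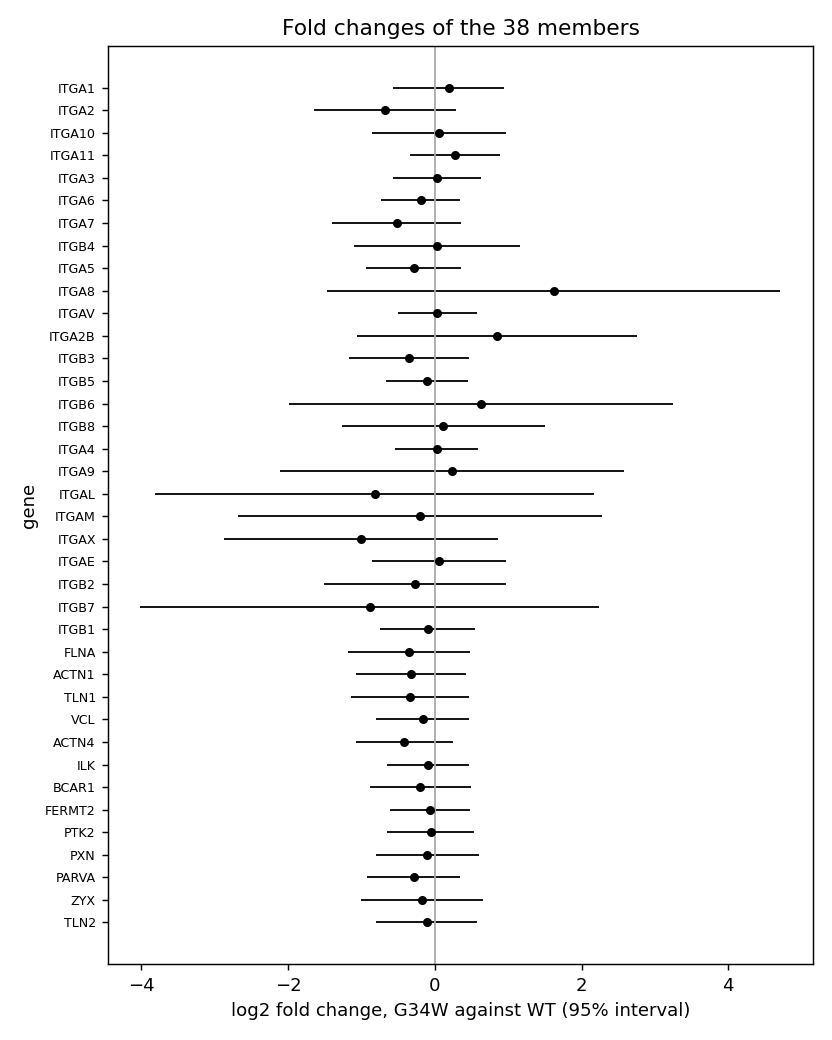
Log2 fold change of G34W against WT (x axis) for each of the 38 genes (y axis) with its 95% interval from limma. Each interval spans 0, and those of low genes such as ITGA8 and ITGB7 are the widest.

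The comparisons with EV ask what either histone adds to the vector. Both use EV replicate 2 alone, which is assumed to vary like the other libraries, and they share that library. For G34W against EV 0 members and 0 genes (0%) passed in limma, with 1 member and 317 genes at an unadjusted p under 0.05. That member was ITGB2, the leukocyte beta subunit, with a log2 fold change of -1.61 (standard error 0.67), which did not pass after adjustment. These counts depended on the G34W library left out. Such a fit sets 1 library against 1 and takes its spread from the WT pair, so its counts are not given. ITGB2 stayed at an unadjusted p under 0.05 with a pseudocount of 0.1 or 10 and with rescaled libraries. It was not at that level without the variance trend or without the filter on low values. Nor was it with a mean of at least 50 or with the replicate block. For WT against EV 0 members and 0 genes (0%) passed, with 0 members and 157 genes at an unadjusted p under 0.05. ITGB2 was at -1.34 (standard error 0.67) there. In both comparisons the count of genes at that level rose without the variance trend and without the filter on low values. For WT against EV the members at an unadjusted p under 0.05 changed with the library left out. The median log2 fold change of the members was -0.069 for G34W and 0.029 for WT, against -0.029 and 0.018 over all genes tested. Single libraries turned both medians. That for G34W was 0.060 without G34W replicate 1 and -0.19 without G34W replicate 2. That for WT was 0.26 without WT replicate 1 and -0.15 without WT replicate 2. With the replicate block the medians were 0.055 for G34W and 0.24 for WT.

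Of 31 integrin ligands, 29 were tested in G34W against WT and 0 passed in limma. At an unadjusted p under 0.05 there were 3, each lower in G34W. Over all genes tested there were 439 of 16259, 265 higher and 174 lower. Values are given for 2 ligands, each lower in both G34W libraries than in both WT libraries. LAMB3, a laminin beta chain, was 8935 in EV replicate 2, 7917 and 9884 in WT and 5396 and 5358 in G34W, a log2 fold change of -0.72 (standard error 0.24). FBN1, the microfibril protein fibrillin-1, was 25503 in EV replicate 2, 22981 and 22086 in WT and 14512 and 13263 in G34W (-0.70, standard error 0.24). In both genes EV replicate 2 was also above both G34W libraries, and each G34W library alone was below both WT libraries. In all, 5 of the 29 ligands (17.2%) lay below both WT libraries in both G34W libraries and 1 (3.45%) above, against 14.7% and 11.6% of all genes tested. With libraries rescaled there were 6 (20.7%) below and 4 (13.8%) above, against 14.1% and 14.2%.

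Of 59 wider adhesion genes, 57 were tested and 0 passed in limma. At an unadjusted p under 0.05 there were 3, each lower in G34W, against 439 of 16259 genes tested, 174 of them lower. FLNC, a filamin of muscle, was 33989 in EV replicate 2, 24889 and 43565 in WT and 12183 and 21689 in G34W, a log2 fold change of -1.02 (standard error 0.37). NEDD9, a docking protein related to BCAR1, was 1671 in EV replicate 2, 1709 and 1591 in WT and 1088 and 1089 in G34W (-0.60, standard error 0.26). Both G34W libraries were the lowest 2 of 5 in FLNC and in NEDD9. Of the 57, 8 lay below both WT libraries in both G34W libraries, a share near the 14.7% of all genes tested, and 1 (1.75%) above, against 11.6%. With libraries rescaled there were 8 below and 5 (8.77%) above, against 14.1% and 14.2%.

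Some member values may include reads of other genes. Of the 38 genes, 11 share exon bases with another listed gene, and the strand setting of the counting is not given in the sources used here. ILK shares 68.1% of its merged exon length with TAF10 on the opposite strand and ITGB7 42.3% with ZNF740. The mean over the 5 libraries was 1672 for TAF10 and 11121 for ILK, but 2577 for ZNF740 and 10.7 for ITGB7. Smaller shares also fell to genes with a higher mean than the member. ITGA1 (3920) shares 2.69% with PELO (6016) on the same strand. On the opposite strand, ITGAE (546) shares 6.47% with HASPIN (1915) and ITGA7 (2321) shares 1.31% with BLOC1S1 (2667). ITGB3 shares 33.2% with AC068234.1 on the same strand.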

How the data were processed

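Bulk RNA-seq of 6 hFOB libraries was analysed. Per the labels and the study's methods, the authors estimated transcript counts with kallisto on GRCh38 models, summarised these by gene through tximport and applied DESeq2 normalisation; the deposited signal is thus normalised estimated counts, which are not whole, and depth is unknown. Values were transformed as log2(value + 1). Genes with a mean of at least 10 over 5 libraries (16259, all 38 members among them) were fitted with limma 3.58.1 in R 4.3.3 with a mean-variance trend, with Benjamini-Hochberg adjustment over all genes and a threshold of 0.05. EV replicate 1 was left out. Fold changes on this scale can understate those of low genes. Transcript lengths and exon overlaps came from GENCODE 44 mapped to GRCh37, coordinates from RefSeq on GRCh38.p14. With lengths of all merged exons in place of the canonical transcript, ITGB1, ITGA5, ITGA3 and ITGB5 kept the first 4 places among the subunits, but FLNA passed ITGB1 among all members. Merged exon lengths and rescaled counts over lists were added after the data were seen. All members are named; of the ligand and wider adhesion lists, the rule was to name the 3 genes with the lowest p where none passed; 1 of each list is not reported here. Members and lists were chosen with earlier results of these data known. Alternatives were other filters, pseudocounts, a fold minimum, rescaling, a replicate block and leaving out each library. Figures were drawn with matplotlib.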

Additional observations from a re-analysis of the deposited data

Results flagged for a closer look

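EV replicate 1, which no comparison above uses, held values above those of EV replicate 2 for 9 of the 38 genes. ITGA5 was 865821 there and 35367 in EV replicate 2. ITGA7 was 97869 there and 3145 in EV replicate 2. ITGA8 was 23.0 there and 8.99 in EV replicate 2. ITGAX was 37.8 there and 33.1 in EV replicate 2. ITGB1 was 1606749 there and 63395 in EV replicate 2. ITGB7 was 675 there and 10.7 in EV replicate 2. VCL was 424574 there and 18858 in EV replicate 2. ILK was 244672 there and 10390 in EV replicate 2. PARVA was 122025 there and 3861 in EV replicate 2. Apart from ITGAX on chromosome 16, these genes lie on chromosomes 10 (ITGA8, ITGB1, VCL), 11 (ILK, PARVA) and 12 (ITGA5, ITGA7, ITGB7). Their ratio to EV replicate 2 ran from 22.5 (VCL) to 63.0 (ITGB7), but was 2.56 for ITGA8. PXN, also on chromosome 12, was 0 in EV replicate 1 and 4473 in EV replicate 2. Members on other chromosomes, ITGAX aside, were lower in EV replicate 1. Whether genes outside the 38 follow the same chromosomes was not tested, nor was the cause.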

How the results depend on the processing

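No member passed the threshold in any of the 3 comparisons under the alternatives run for it. These were no variance trend, no filter or a mean of at least 50, and a pseudocount of 0.1 or 10. Further ones were rescaled libraries, a log2 fold change of at least 1, EV replicate 1 kept, and a WT or G34W library left out. WT and G34W libraries alone, or without EV replicate 2, were run for G34W against WT only. With the replicate block, 0 genes and 0 members passed in each comparison, with 715 genes at an unadjusted p under 0.05 for G34W against WT, 275 for G34W against EV and 369 for WT against EV. The members among these were ITGA2 and ACTN4 for G34W against WT and ITGA2 for WT against EV, with 0 for G34W against EV. Whether the replicate number marks a shared batch or day is not given in the sources used here. Replicate 1 minus replicate 2 differences in G34W and WT correlated at 0.0945 across 16259 genes. Replicate 1 was below replicate 2 in both groups for 12 of 13 adaptor and actin-linking genes (9 rescaled). The share was 40.8% over all genes (24.8% rescaled), and 56.8% over those with a mean of at least 1000 (32.6% rescaled). Rescaled, ITGA11 was at an unadjusted p under 0.05 for WT against EV.

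Of all genes, 0 passed in the 3 comparisons, but a pseudocount of 0.1 gave 1 for G34W against EV and 1 for WT against EV. Leaving out 1 library gave 0 to 6 genes for G34W against WT, 0 to 1 for G34W against EV and 0 to 4 for WT against EV. The 6 and the 4 came without WT replicate 1, and the cause was not tested. With EV replicate 1 kept, the members' median log2 fold change against EV was 3.07 for G34W and 3.23 for WT; with the replicate block it was 0.055 and 0.24. Added after the data were seen, rescaling gave 3 members with both G34W libraries above WT (ITGA4, ITGA8, ITGA11) and 2 below (ITGA5, ACTN4), in place of 1 and 1, against 14.2% and 14.1% of all genes. With 1 G34W library left out there were 6 to 11 above and 5 to 22 below, as 1 library is more easily outside a pair. Rescaled, 11 of 13 adaptor and actin-linking genes were highest in WT replicate 2 and 7 lowest in G34W replicate 1. The shares were 22.4% and 25% of all genes, and 30.1% and 31.25% of those with a mean of at least 1000.

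The direction of 30 members for G34W against WT turned when 1 library was left out (12 without G34W replicate 1, 8 without G34W replicate 2, 7 without WT replicate 1, 18 without WT replicate 2). Their log2 fold changes ranged as follows: ITGA1 -0.25 to 0.63, ITGA2 -1.41 to 0.051, ITGA2B -0.16 to 1.85, ITGA3 -0.12 to 0.18, ITGA4 -0.14 to 0.19, ITGA9 -1.35 to 1.82, ITGA10 -0.32 to 0.44, ITGAV -0.054 to 0.13, ITGAE -0.50 to 0.61, ITGAL -1.76 to 0.12, ITGAM -1.35 to 0.94, ITGB1 -0.23 to 0.036, ITGB2 -0.86 to 0.33, ITGB3 -0.73 to 0.023, ITGB4 -0.33 to 0.39, ITGB5 -0.27 to 0.057, ITGB6 -0.53 to 1.79, ITGB7 -0.93 to 0.37, ITGB8 -0.75 to 0.99, TLN1 -0.75 to 0.079, TLN2 -0.48 to 0.25, VCL -0.42 to 0.094, PXN -0.54 to 0.33, PTK2 -0.29 to 0.18, ILK -0.22 to 0.041, FERMT2 -0.16 to 0.033, ZYX -0.73 to 0.38, BCAR1 -0.51 to 0.12, FLNA -0.74 to 0.028, ACTN1 -0.72 to 0.072. For ITGAL and ITGB7 these ranges cover 4 of the 5 fits, as the filter on low values removed each from 1. ITGB7 was not tested without G34W replicate 2, and G34W replicate 1 alone was at a log2 ratio of -2.15 to the WT mean. Rescaling also turned PTK2 (0.011) and FERMT2 (0.0063). Depth is unknown, so the precision of low genes is judged only from the spread between libraries.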
